A study of Mus musculus with 27 samples.

Results

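The change of gene expression in recruited alveolar macrophages between day 3 and day 9 after lung injury was measured in 6 sequencing libraries, 3 from each day. All genes that passed a filter on low counts were compared, 13599 of the 38124 in the count table. The cells came from C57B/6 mice aged 8 to 14 weeks that had been given lipopolysaccharide (LPS, a component of the bacterial outer membrane) in saline into the trachea. The labels give the dose as 20 nanograms in 50 microliters, and the unit of mass could not be checked here. They were washed out by bronchoalveolar lavage and sorted as CD11c negative and CD11b positive, where CD11c and CD11b are the integrin chains encoded by Itgax and Itgam. Recruited cells of day 6 and day 12 place the change in time. Resident macrophages, sorted from the lavage as CD11c positive and CD11b negative, were taken from untreated mice and on the same days after LPS, and serve to test where the 2 populations changed differently. Every group had n = 3 libraries of polyadenylated RNA, 27 in all, and no group of recruited cells was untreated. The labels do not say that the libraries of a group came from separate animals, so the p-values measure the spread between these libraries, which may be technical.

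When LPS reaches the airspace, resident macrophages and epithelium release chemokines, and monocytes leave the blood and become macrophages in the lung. Such recruited cells are known for an early phase rich in inflammatory mediators, driven by Toll-like receptor and interferon signals, and for a later phase of debris clearance, lipid handling and tissue repair. Cells that persist can take on features of resident alveolar macrophages, whose identity depends on the nuclear receptor Pparg and on surfactant lipids.

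The 6 libraries held 12647440 to 18299674 counts in genes and detected 16742 to 17446 genes. Log2 levels of library pairs correlated across genes at 0.979 to 0.985 within day 3, at 0.954 to 0.976 within day 9 and at 0.912 to 0.939 between the days. Recruited day 9 replicate 2 stood apart. Its share of reads outside genes was 6.93%, against 9.56% to 13% in the other 5 libraries, and its 10 most abundant genes took 17.9% of its counts, against 8.38% to 11.8%. Its column in the table of unassigned reads carries the number 17, next to the number 18 of recruited day 12 replicate 1, which had a like share of reads outside genes (7.03%) and of counts in its top 10 genes (18.3%). The resident libraries with the numbers 12 and 13 also had low shares outside genes, 6.77% and 7.06%. The sources used here do not say what these numbers mean. Results that rest on this library are given with and without it.

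Between day 3 and day 9, 2479 genes rose (18.2% of those tested) and 2454 fell (18%), at a Benjamini-Hochberg adjusted p under 0.05 in edgeR's quasi-likelihood test. Counts of list members below are to be read beside these shares. The median log2 change over all tested genes was 0.03. When the spread was taken from these 6 libraries alone, the counts were 1341 and 1431. The falls reached further than the rises. At least 8-fold lower on day 9 were 276 of the called genes and at least 8-fold higher 160, and at least 32-fold lower were 88 and at least 32-fold higher 26. The 3 libraries of one day did not overlap with those of the other in 5539 genes (40.7%). Without recruited day 9 replicate 2 the counts were 2591 higher and 2436 lower, and 4243 of the 4933 calls were made again in the same direction. With scaling by library size alone, 3044 genes rose and 1787 fell, so the rises made up 63.0% of the calls rather than 50.3%, and the median change of all genes moved to 0.15.

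**Figure D1:**
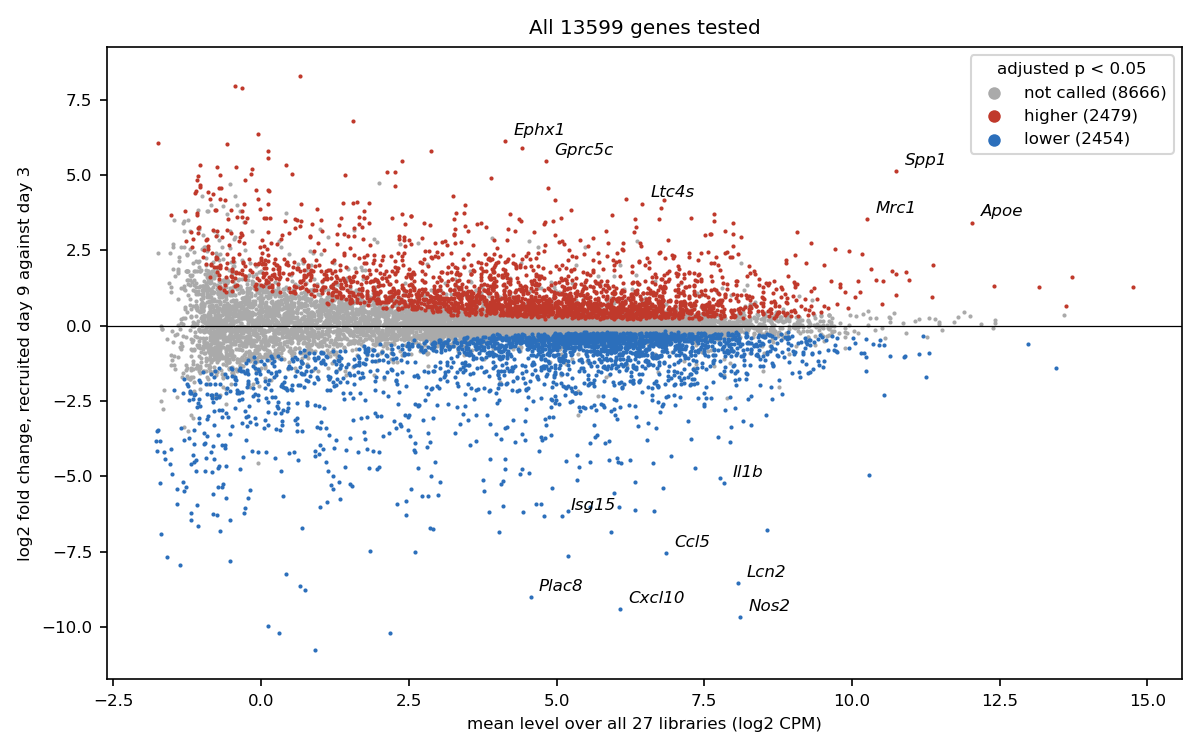
Change of every tested gene. The vertical axis is the edgeR log2 fold change of recruited day 9 against day 3, the horizontal axis the mean level over the 27 libraries in log2 CPM (counts scaled to a common total of reads in genes), and each point is 1 gene, coloured by whether its adjusted p was under 0.05. The called genes reach further down (Nos2 at -9.67) than up among abundant genes (Spp1 at 5.13).

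The inflammatory mediators were the list that fell furthest. Of its 34 tested members, 29 fell and none rose, with a median log2 change of -5.27, which was also -5.27 with Cxcl11 set at its lower bound. Levels are in CPM, counts scaled to a common total of reads in genes with TMM factors. Nos2 (ENSMUSG00000020826, chromosome 11, 78920787 to 78960254, forward strand, GRCm38) encodes the inducible nitric oxide synthase. It stood at 1400, 3800 and 1950 CPM in the 3 libraries of day 3 and at 4.33, 1.73 and 2.47 CPM on day 9, a log2 change of -9.67 ± 0.52 (SE, adjusted p = 1.22e-10). The lowest library of day 3 was thus far above the highest of day 9. Cxcl10, a chemokine induced by interferon that draws in T cells, went from 310, 627 and 426 CPM to 0.299, 1.43 and 0.374 CPM (log2 -9.42 ± 0.51, adjusted p = 4.98e-11, and -10.38 without day 9 replicate 2). Its relative Cxcl11 had 603 counts on day 3 and none on day 9, at least 228-fold lower if 3 counts are taken as the floor of the whole group.

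The classical cytokines fell less far than these but in all libraries. Il1b, the pro-inflammatory interleukin 1 beta, stood at 1050, 1790 and 1270 CPM on day 3 and at 38.3, 19.5 and 51.4 CPM on day 9 (log2 -5.23 ± 0.60, adjusted p = 1.14e-06). Tnf, tumour necrosis factor, went from 162, 329 and 182 CPM to 6.32, 15.4 and 8.16 CPM (log2 -4.51 ± 0.70). Ccl2, which attracts monocytes through the receptor Ccr2, went from 133, 239 and 213 CPM to 6.62, 28.8 and 10.3 CPM (log2 -3.69 ± 0.57, and -4.51 without day 9 replicate 2). On none of these 3 genes did the libraries of the days overlap. The members that did not pass the test were the chemokines Ccl17 (log2 0.94), Ccl22 (0.11) and Ccl8 (-0.13), the cytokine Osm (-1.65, adjusted p = 0.0843) and the macrophage growth factor Csf1 (-0.57, adjusted p = 0.16). Of these 5, all but Csf1 are outside the rule for named genes and were picked after their values were seen. With a covariate for runs of the column numbers, grouped by eye, Csf1 was called (log2 -0.69, adjusted p = 0.0176).

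Other strongly lowered genes had varied roles. Ptgs2, the inducible cyclooxygenase of prostaglandin synthesis, stood at 97.7, 615 and 211 CPM on day 3 and at 2.19, 0.6 and 1.65 CPM on day 9 (log2 -7.64 ± 0.87, and -6.65 without day 3 replicate 2). Edn1, the precursor of the vasoconstrictor endothelin 1, had 1398 counts on day 3 and a single count on day 9, a ratio of 1580 with a 95% counting interval of 284 to 62600. That interval is of pooled reads and leaves out the spread between libraries. Day 3 replicate 1 was the low library of that day for both Ptgs2 and Edn1, with 3.85 CPM of Edn1 against 57 and 44.8 CPM. Serpina3f, a protease inhibitor, fell by 6.86 on the log2 scale, and Plekhg4 by 7.49 (by 8.20 without day 9 replicate 3). Lcn2, the iron-siderophore binding protein lipocalin 2, fell by 8.56 from 971, 1550 and 1210 CPM to 0.847, 5.18 and 4.19 CPM.

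**Figure D2:**
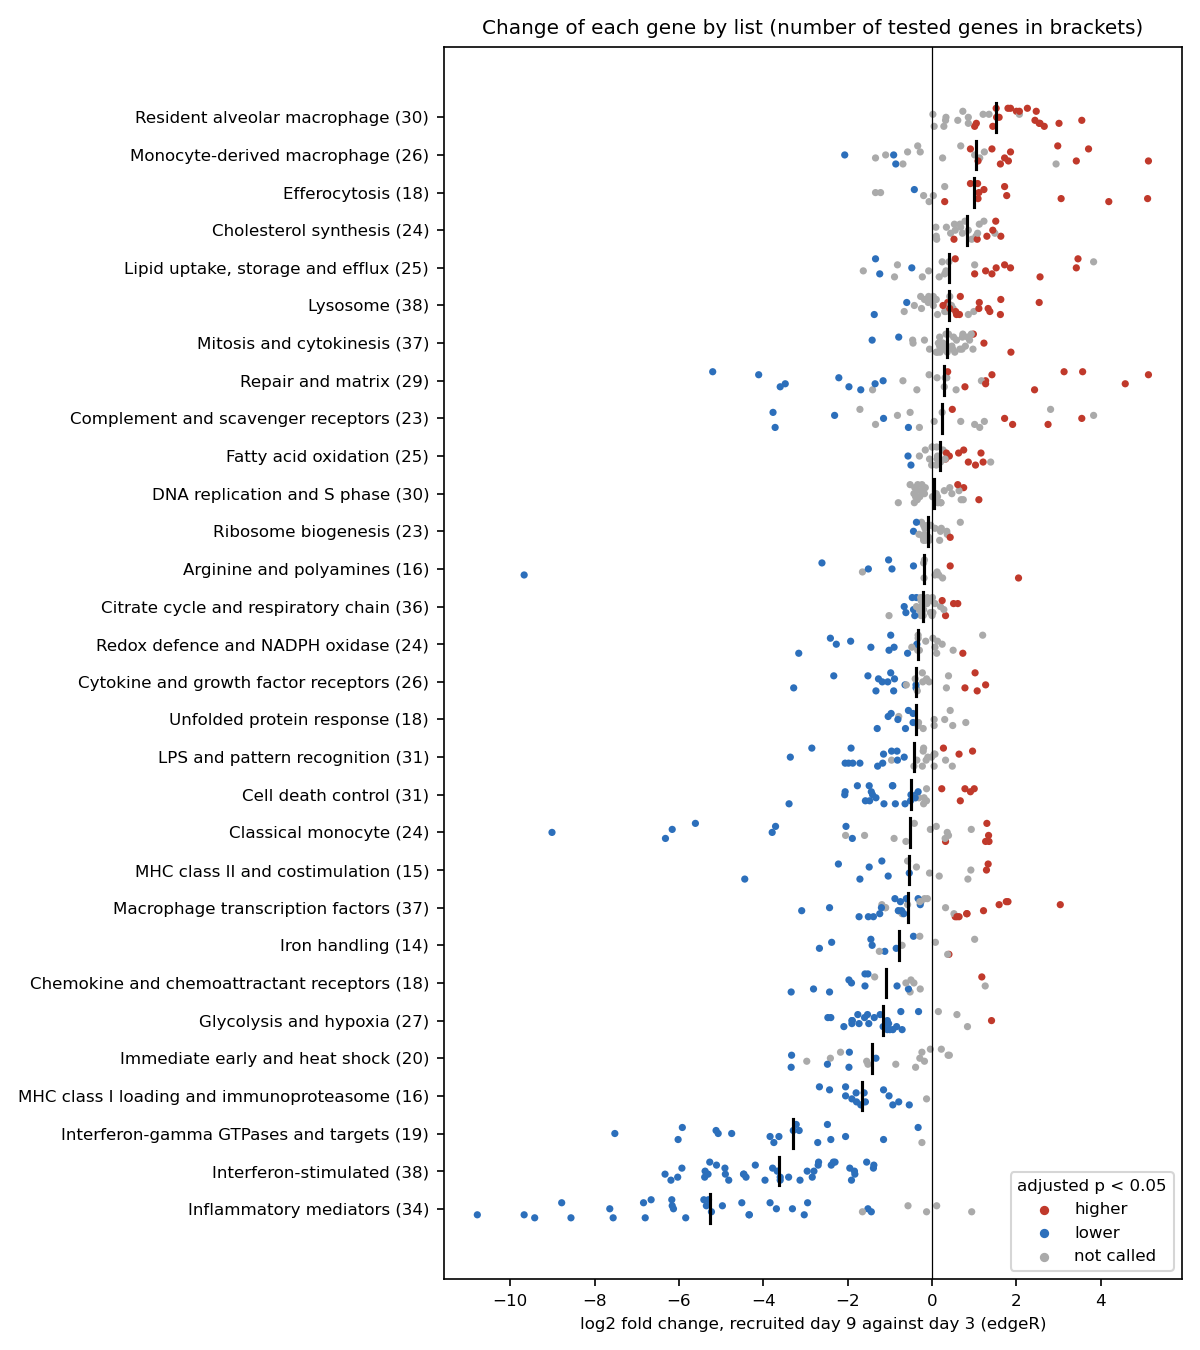
Log2 fold change of each tested gene of the 30 lists that describe macrophage biology, recruited day 9 against day 3. Each point is 1 gene, the colour shows whether its adjusted p was under 0.05 and in which direction, black bars are list medians, and lists are ordered by median, from 1.53 (resident alveolar macrophage) to -5.27 (inflammatory mediators).

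Every one of the 38 interferon-stimulated genes tested was lower on day 9, with log2 changes from -1.38 to -6.33 and a median of -3.63. All 38 had no overlap between the libraries of the days. Isg15 (ENSMUSG00000035692, chromosome 4, 156199424 to 156200818, reverse strand) encodes a ubiquitin-like modifier. It went from 187, 277 and 213 CPM to 1.49, 5.63 and 1.5 CPM (log2 -6.33 ± 0.58, adjusted p = 6.6e-08). Without day 9 replicate 2 the change was -7.21. Rsad2, the antiviral enzyme viperin, went from 267, 490 and 251 CPM to 3.19, 8.33 and 4.12 CPM (log2 -6.03 ± 0.58). Ifi205, of the Ifi200 family, went from 133, 246 and 134 CPM to 2.59, 2.4 and 1.95 CPM (log2 -6.19 ± 0.37). Without day 9 replicate 2 all 38 fell again, with the median at -3.63.

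The promoters of the list were searched for a known element. The interferon-stimulated response element is bound by the ISGF3 complex and by interferon regulatory factors, and its core was searched on both strands as GAAANNGAA in RefSeq promoter windows (GRCm38.p6) from 250 bases before to 50 bases after each transcription start. Of the 38 genes, 25 matched a window by symbol, and 17 of these held the core (68.0%), against 2812 of all 32851 promoter windows (8.56%) and 8.93% of the 9894 tested genes with a window. In 4 windows of 90 bases upstream of the start, each 5′ to 3′ on the strand of the gene, capitals mark every copy of the core on either strand. They are shown as promoters of members of this list, Ifit1 and Ifit3 having been picked after their values were seen, and a match describes the letters only.
Isg15, chr4:156200835-156200924, reverse strand: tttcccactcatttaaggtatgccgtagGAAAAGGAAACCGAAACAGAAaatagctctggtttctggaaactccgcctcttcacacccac
Rsad2, chr12:26456522-26456611, reverse strand: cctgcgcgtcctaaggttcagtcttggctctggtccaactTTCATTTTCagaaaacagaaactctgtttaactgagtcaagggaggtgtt
Ifit1, chr19:34640765-34640854, forward strand: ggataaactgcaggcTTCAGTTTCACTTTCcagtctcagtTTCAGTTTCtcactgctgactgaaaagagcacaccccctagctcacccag
Ifit3, chr19:34583387-34583476, forward strand: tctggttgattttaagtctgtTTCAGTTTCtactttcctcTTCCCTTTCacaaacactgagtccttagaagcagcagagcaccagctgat
The copies overlap in Isg15 and in Ifit1. The window of Ifit3 has the same sequence as that of its near-identical copy Ifit3b, which lies elsewhere on chromosome 19. Reads of those 2 genes may be split by the counting, which the windows do not show. For the inflammatory mediators a part of the NF-kB site, GGGNNTTTC, was in the windows of 8 of the 22 genes with a match (36.4%), against 4.36% of all windows and 5.23% of tested genes.

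Targets of interferon gamma followed the same direction. Of 19 tested GTPases and other targets, 18 fell and none rose (median log2 -3.29). Tgtp1, a T cell specific GTPase that has a near-identical copy, fell by 7.52, Serpina3g by 6.02 and Gbp4, a guanylate binding protein that acts against intracellular microbes, by 5.92. Gbp8 was the member that did not pass, at -0.24, and was picked after its value was seen. Reads of such families of close copies may be split between members.

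Genes of antigen presentation on MHC class I fell. Of 16 tested genes for class I loading and the immunoproteasome, 15 fell and none rose (median log2 -1.65). Tap1, a subunit of the peptide transporter, went from 628, 724 and 657 CPM to 122, 98.7 and 95.6 CPM (log2 -2.67 ± 0.18), Psme2, a proteasome activator subunit, fell by 2.43 and Nlrc5, the class I transactivator, by 2.05. The class II and costimulation list was mixed, with 2 of 15 higher and 7 lower. Cd40, a costimulatory receptor, went from 95, 164 and 76.0 CPM to 5.43, 7.05 and 2.84 CPM (log2 -4.44 ± 0.45). H2-Ab1, a class II beta chain, went from 2720, 974 and 751 CPM to 390, 613 and 352 CPM (log2 -1.71 ± 0.41, adjusted p = 0.00282), with day 3 replicate 1 well above the others. Without that library its change was -0.93, and with only the 6 libraries in the fit it was not called (-1.70, adjusted p = 0.0578). Ctss, the protease cathepsin S that trims the invariant chain, moved the other way, by 1.33. The counts rest on single libraries. There were 4 higher without day 9 replicate 2 and 1 higher without day 3 replicate 1 or 3 or day 9 replicate 1 or 3, and there were 4 lower without day 3 replicate 1 or day 9 replicate 1 and 3 lower without day 9 replicate 3. With only the 6 libraries in the fit, 1 was higher and 2 were lower.

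**Figure D3:**
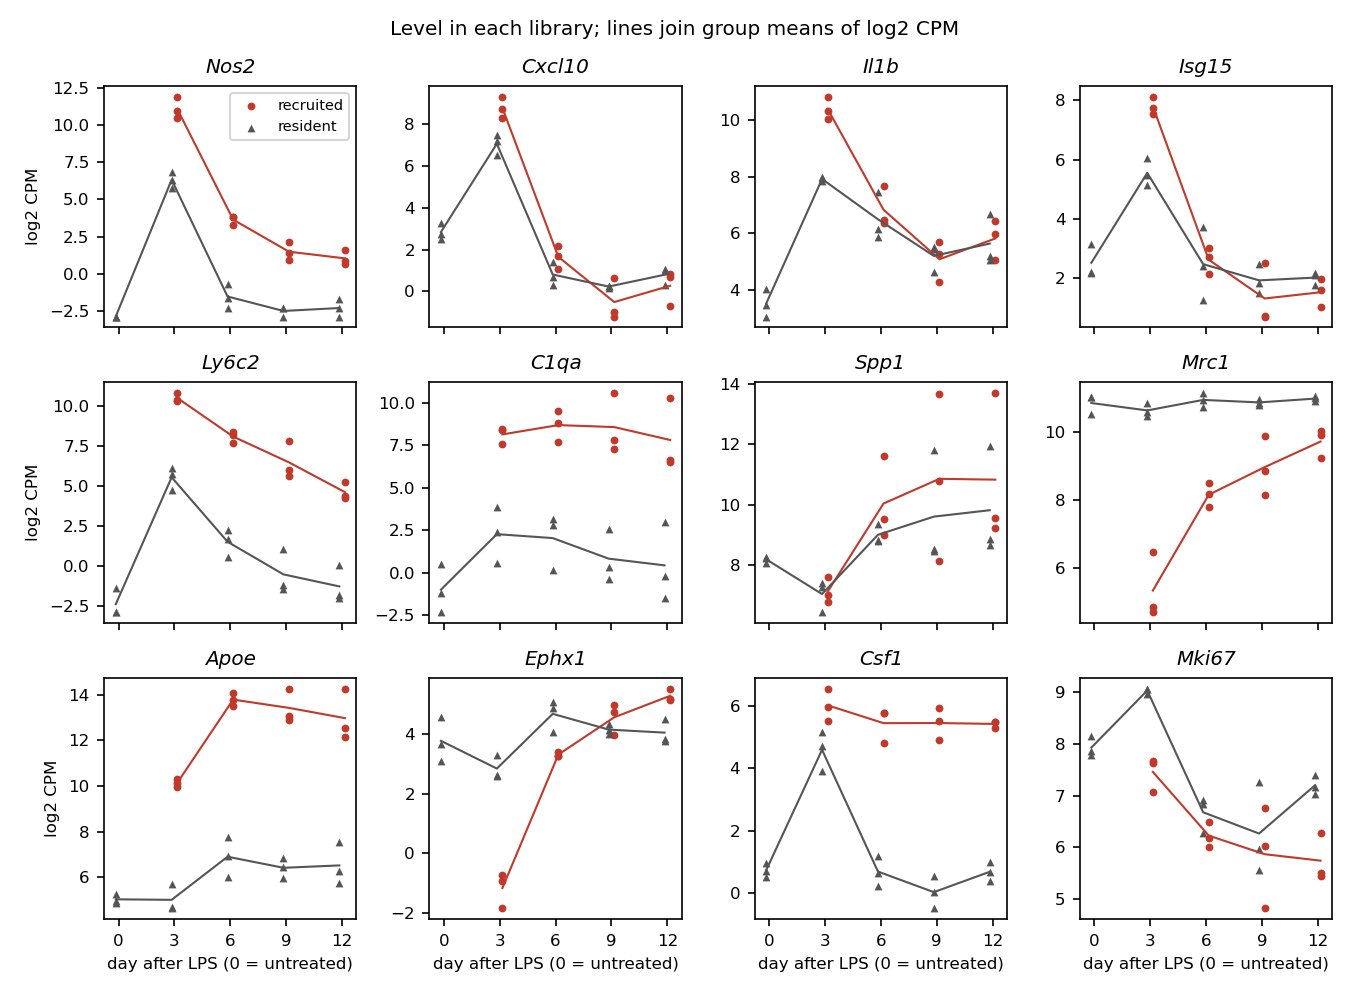
Levels of 12 genes in every library by day after LPS, on a log2 CPM axis. Red circles are recruited and grey triangles resident cells, day 0 is untreated, and lines join the group means. Nos2, Cxcl10, Il1b and Isg15 drop from day 3 in both populations, Mrc1 and Ephx1 climb in recruited cells, and Spp1, Apoe and C1qa have 1 high recruited library on day 9.

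The sensing and signalling genes for LPS also moved mostly down, 14 of 31 against 3 that rose (median log2 -0.43). Clec4e, the mycobacterial cord factor receptor Mincle, went from 1130, 1490 and 1180 CPM to 97.0, 173 and 100 CPM (log2 -3.36 ± 0.42). Nlrp3, the inflammasome sensor, fell by 2.85 and Irak3, a brake on Toll-like receptor signalling, by 2.06. Among receptors for chemoattractants, 10 of 18 fell and 1 rose (2 without day 3 replicate 1). The formyl peptide receptors Fpr1 (log2 -2.43) and Fpr2 (-2.81) and the chemerin-binding Ccrl2 (-3.34) fell furthest, and the count of falls was 6 without day 9 replicate 1 and 5 without day 9 replicate 3. Ccr2, the receptor that brings monocytes out of the marrow, stood at 85.6, 149 and 147 CPM on day 3 and at 65.7, 92.2 and 90.3 CPM on day 9. Its libraries overlapped, and the log2 change of -0.62 ± 0.42 did not pass the test (adjusted p = 0.268). Cx3cr1, the fractalkine receptor, was likewise not called (log2 -0.28, adjusted p = 0.739).

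Of the cytokine and growth factor receptors, 13 of 26 fell and 4 rose. Ifnar1, a chain of the type I interferon receptor, had close replicates, with 379, 400 and 389 CPM on day 3 and 123, 162 and 122 CPM on day 9 (log2 -1.52 ± 0.12, adjusted p = 1.77e-09). Il15ra fell by 2.33 and the decoy receptor Il1r2 by 3.28 (by 4.07 without day 9 replicate 2).

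In energy metabolism, genes of glycolysis fell. Of 27 tested genes of glycolysis and the hypoxia response, 23 fell and 1 rose (median log2 -1.16). Hk3, a hexokinase, went from 626, 902 and 655 CPM to 101, 217 and 96.6 CPM (log2 -2.4 ± 0.23). Egln3, an oxygen-dependent prolyl hydroxylase of the hypoxia pathway, fell by 2.47 and Pgk1, phosphoglycerate kinase, by 2.09. The gene that rose was Pfkfb4 (log2 1.41, picked after its value was seen), which sets the level of fructose 2,6-bisphosphate. In the citrate cycle and respiratory chain 6 of 36 fell and 4 rose, and the called changes lay between -0.66 (Cox5b) and 0.61 (Suclg2, whose call was lost at 0.46 without day 3 replicate 2, at 0.47 without day 9 replicate 3 and at 0.63 with only the 6 libraries in the fit). Mdh2 changed by -0.62. The shares of this list, 16.7% lower and 11.1% higher, were under the 18% and 18.2% of all tested genes. Rises were 1 without day 3 replicate 2 and 2 without day 9 replicate 3. Without day 9 replicate 2 the count of falls was 13, without day 3 replicate 2 it was 10 and without day 3 replicate 3 it was 3.

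Oxidation of fatty acids moved the other way, with 9 of 25 genes higher and 2 lower (median log2 0.20, with 5 higher without day 3 replicate 2 or without day 9 replicate 3, and 1 lower without day 3 replicate 3). With only the 6 libraries in the fit, 5 were higher and 1 was lower. Decr1, needed for unsaturated fatty acids, stood at 10.7, 5.58 and 6.99 CPM on day 3 and at 16.1, 20.6 and 15.3 CPM on day 9 (log2 1.16 ± 0.19). Acox3, a peroxisomal oxidase, rose by 0.86. Cholesterol synthesis had 6 of 24 genes higher (25%, against 18.2% of all tested genes) and none lower. All 24 estimates were positive (median log2 0.82). Dhcr7, which makes the last step to cholesterol, went from 25.3, 16.8 and 20.6 CPM to 41.9, 68.0 and 61.2 CPM (log2 1.44 ± 0.26). Cyp51 rose by 1.63 and Lss, lanosterol synthase, by 1.51. The count of rises was 3 without day 3 replicate 1 or day 3 replicate 2, and 11 with scaling by library size alone. The core of the sterol response element, TCACNCCAC, was in the windows of 1 of 17 matched genes (5.88%), against 1.24% of all windows and 1.32% of tested genes.

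Enzymes of redox defence fell in 10 of 24 cases and rose in 1. Sod2, the mitochondrial superoxide dismutase, went from 1140, 1350 and 1360 CPM to 113, 204 and 115 CPM (log2 -3.16 ± 0.25), Prdx5, a peroxiredoxin, fell by 2.27 and Slc7a11, the cystine importer, by 2.41. In iron handling 7 of 14 fell and 1 rose. Without day 9 replicate 1, 3 fell and 3 rose, and without day 3 replicate 2 or day 9 replicate 2 none rose. Fth1, the ferritin heavy chain, was at 29300, 24200 and 24300 CPM on day 3 and at 9510, 11400 and 8230 CPM on day 9 (log2 -1.42 ± 0.25), and ceruloplasmin, Cp, fell by 2.67. In arginine metabolism Ass1, which makes argininosuccinate for arginine recycling, went from 242, 245 and 236 CPM to 38.4, 47.5 and 32.9 CPM (log2 -2.61 ± 0.28), and Arg2, the mitochondrial arginase, fell by 1.51. Arg1, often used as a marker of alternative activation, was at 662, 704 and 2180 CPM on day 3 and at 16.3, 631 and 485 CPM on day 9. Each day had 1 library far from its other 2, and the change of -1.65 ± 1.19 was not called (adjusted p = 0.299). With a covariate for runs of the column numbers it was called (log2 -2.45, adjusted p = 0.0347). Genes of the unfolded protein response fell in 8 of 18 cases and rose in none (2 without day 9 replicate 2), by 1.04 for Manf and 0.97 for Creld2. Of 23 ribosome biogenesis genes 1 rose and 2 fell, and leaving out single libraries gave 0 to 3 rises and 0 to 2 falls.

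Control of cell death was weighted to falls, 20 of 31 genes, with 5 rises (3 without day 3 replicate 1 or 2). Tnfsf10, the death ligand TRAIL, fell by 3.39, Mlkl, the executor of necroptosis, by 2.07 and Pmaip1, a pro-death Bcl2 family member, by 2.06. Of the immediate early and heat shock genes 6 of 20 fell and none rose (1 without day 9 replicate 2). The 6 were each lowest on day 3 in replicate 1. The phosphatase Dusp2 stood at 12.5, 49.9 and 22.7 CPM on day 3 and at 2.54, 3.08 and 2.84 CPM on day 9 (log2 -3.33 ± 0.57, and -2.64 without day 3 replicate 2), and Ier3 at 120, 373 and 350 CPM and then at 60.8, 36.3 and 53.9 CPM.

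Of 24 tested genes that mark classical monocytes, 8 fell and 5 rose, and the rising share of 20.8% was near the 18.2% of all tested genes. The summed level of the list was higher on day 9, at 28300 to 33200 CPM on day 3 and at 39000, 75700 and 49300 CPM on day 9. The genes named next all fell, and none of the 5 that rose is named here. Plac8 went from 134, 280 and 189 CPM to 0.498, 0.525 and 0.0749 CPM (log2 -9.01 ± 0.59), Ms4a4c fell by 6.32 and Ly6a, the stem cell antigen Sca-1 that interferon induces, by 6.16 (by 8.39 without day 9 replicate 2). Ly6c2, the antigen by which inflammatory monocytes are sorted, stood at 1280, 1290 and 1790 CPM on day 3 and at 64.8, 221 and 48.1 CPM on day 9 (log2 -3.71 ± 0.60, adjusted p = 6.47e-05). It has a near-identical neighbour, so its counts may be split. Without day 9 replicate 2, the highest of that day, the change was -4.67, and 10 genes of the list fell and 3 rose. In a bulk sample, fewer cells of a type and less RNA of a gene in each cell cannot be told apart, here and below.

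Genes that mark resident alveolar macrophages rose. Of the 30 tested, 18 rose and none fell, and all 30 estimates were above 0, with a median log2 change of 1.53 (19 rising and 1.57 without day 9 replicate 2). With only the 6 libraries in the fit, 9 were called higher. Mrc1 (ENSMUSG00000026712, chromosome 2, 14229392 to 14332057, forward strand) encodes the mannose receptor. It stood at 89.1, 28.9 and 26.1 CPM on day 3 and at 285, 466 and 941 CPM on day 9 (log2 3.55 ± 0.43, adjusted p = 1.45e-06), and at 1860 ± 351 CPM (SD, n = 3) in untreated resident cells. Mcoln3, an endolysosomal channel, rose from 12.7, 4.01 and 2.11 CPM to 52.5, 44.3 and 56.2 CPM (log2 3.01 ± 0.34). Siglecf, the lectin that identifies alveolar macrophages in the mouse, went from 11.8, 2.36 and 1.82 CPM to 18.6, 17.6 and 66.3 CPM (log2 2.66 ± 0.64, adjusted p = 0.00298). All 3 libraries of day 9 were above those of day 3 and well under the 438 ± 97.8 CPM of untreated resident cells. With only the 6 libraries in the fit its change was not called (2.68, adjusted p = 0.0773), and it was 1.75 without day 9 replicate 3. Day 3 replicate 1 was the highest of its day for all 3 genes, and without it the changes were 4.36 for Mrc1, 4.06 for Mcoln3 and 4.03 for Siglecf.

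Pparg, the master regulator of that identity, went from 18.5, 25.1 and 11.5 CPM to 70.8, 32 and 89.5 CPM (log2 1.80 ± 0.33, adjusted p = 0.000246), against 168 ± 34.2 CPM in untreated resident cells. Itgax, which encodes the CD11c against which the cells were sorted, stood at 306, 201 and 148 CPM on day 3 and at 455, 579 and 857 CPM on day 9 (log2 1.53 ± 0.21), without overlap. Itgam, which encodes CD11b, was at 2250, 3040 and 3780 CPM on day 3 and at 1550, 2400 and 1480 CPM on day 9, and its change of -0.74 ± 0.50 was not called (adjusted p = 0.262). With a covariate for runs of the column numbers the change of Itgam was called (log2 -1.07, adjusted p = 0.0194). The summed level of the list was 2080 to 3700 CPM on day 3 and 7220 to 10900 CPM on day 9. Among its members the carbonic anhydrase Car4 (60.4, 18.1 and 13.5 CPM on day 3, then 14.3, 28.5 and 50.9 CPM), the scavenger receptor Marco and the keratin Krt79 did not pass the test, and each was far under its untreated resident level of 385, 382 and 427 CPM. These 3 were picked after their values were seen. Whether resident cells in the sort had a part in the rise was not tested.

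The genes of monocyte-derived macrophages depended strongly on day 9 replicate 2. Of 26 tested, 11 rose and 3 fell with all libraries (median log2 1.05), and 5 rose and 6 fell without that library (median 0.25). Without day 3 replicate 3, or with only the 6 libraries in the fit, the rises were 7. Their summed level was 9870 to 11800 CPM on day 3 and 17800, 53700 and 19100 CPM on day 9. Apoe (ENSMUSG00000002985, chromosome 7, 19696109 to 19699188, reverse strand), the lipid carrier apolipoprotein E, rose in each library, from 1280, 981 and 1140 CPM to 8710, 19800 and 7730 CPM (log2 3.42 ± 0.59, adjusted p = 0.000119, and 2.88 without replicate 2). Trem2, a receptor for lipids and apoptotic cells, rose from 141, 99.4 and 158 CPM to 356, 750 and 341 CPM (log2 1.86 ± 0.40, and 1.41 without replicate 2).

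Other members had by far their highest day 9 level in that library. Spp1, the secreted phosphoprotein osteopontin, stood at 109, 127 and 192 CPM on day 3 and at 282, 12900 and 1760 CPM on day 9. Its change was 5.13 ± 1.49 (adjusted p = 0.0109), and 2.87 with an adjusted p of 0.0999 without replicate 2. With a covariate for runs of the column numbers it was 2.97 (adjusted p = 0.000632). C1qa, a chain of the complement component C1q, was at 347, 188 and 336 CPM and then at 155, 1530 and 227 CPM. It was not called (log2 1.13 ± 1.09, adjusted p = 0.447), and its estimate turned to -0.59 without that library. Fcrls went from 1.49, 0.864 and 0.510 CPM to 2.74, 17.6 and 2.84 CPM, and its call at log2 2.98 was lost without replicate 2 (adjusted p = 0.189), without day 3 replicate 2 and without day 3 replicate 3 (the log2 changes were 1.54, 2.92 and 2.68). With the covariate the change of Fcrls was 1.64 (adjusted p = 0.0287).

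**Figure D4:**
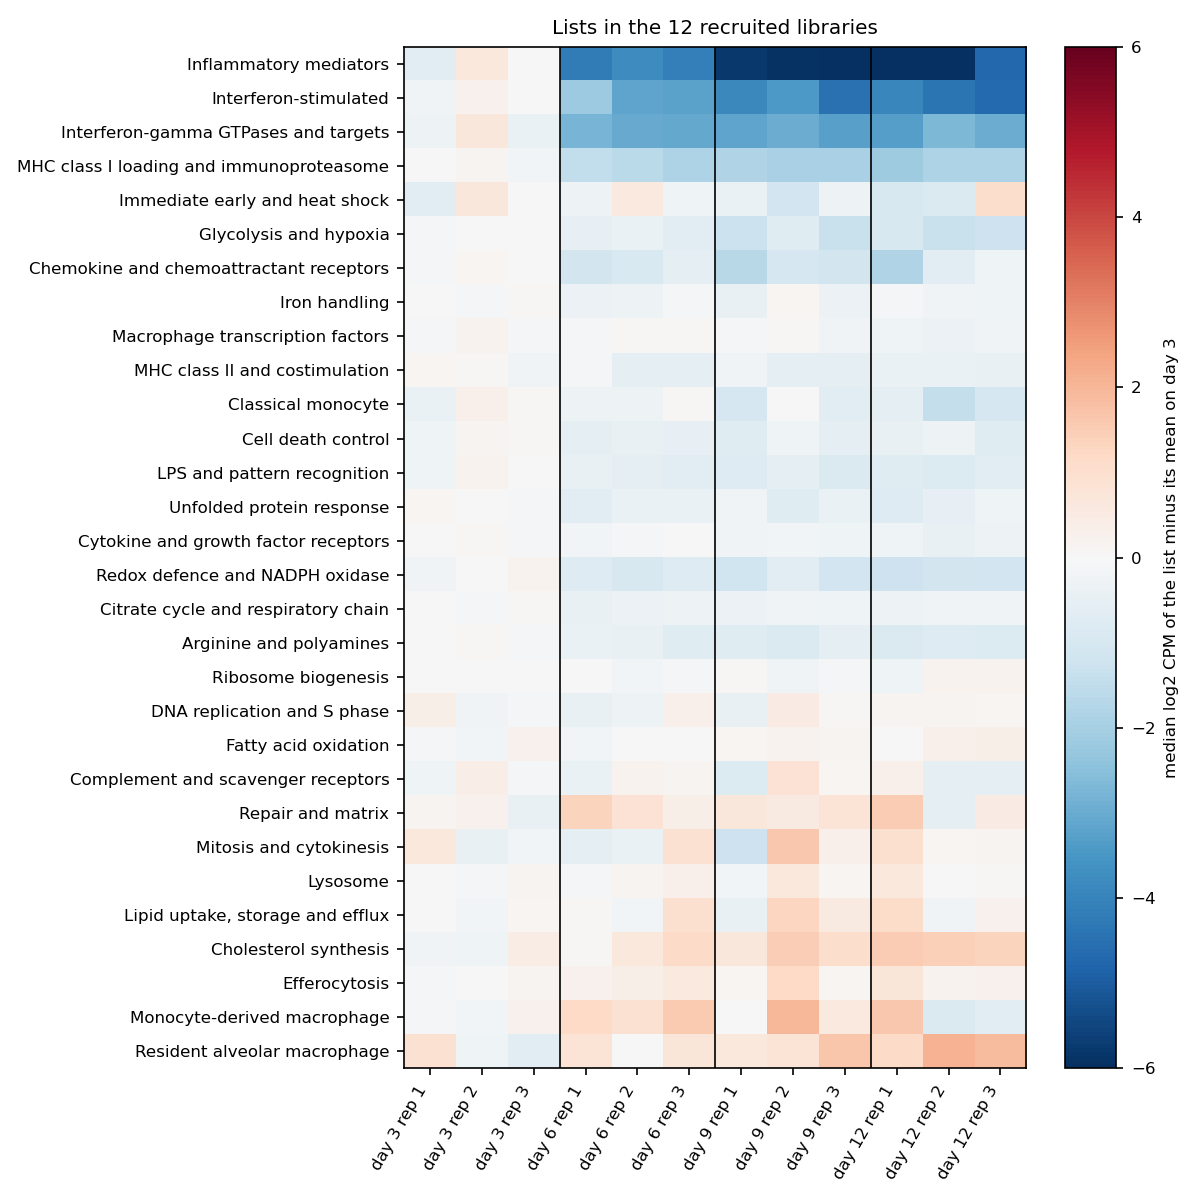
Lists in each of the 12 recruited libraries. Colour is the median log2 CPM of a list's tested genes minus the mean of that median over the 3 libraries of day 3, rows are lists and columns are libraries, with lines between days. The monocyte-derived macrophage row is high in all 3 libraries of day 6, in day 9 replicate 2 and in day 12 replicate 1, and the rows of inflammatory and interferon genes are low in all libraries after day 3.

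Uptake of dying cells is carried out by bridging proteins and receptors. Of the 18 tested genes of this list, 11 rose and 1 fell (median log2 0.99, and 0.83 without day 9 replicate 2). The falls were 2 without day 3 replicate 1 or day 9 replicate 2 and 0 without day 3 replicate 2 or 3. Pros1, protein S, a bridging ligand of the TAM receptors, had narrow replicates, with 17.2, 13.1 and 17.9 CPM on day 3 and 107, 139 and 155 CPM on day 9 (log2 3.06 ± 0.19, adjusted p = 8.25e-11). Gas6, the other TAM ligand, went from 0.608, 0.628 and 0.291 CPM to 2.59, 46.1 and 5.24 CPM (log2 5.11 ± 1.25), and the change was 2.92 without replicate 2 (adjusted p = 0.0452). Mfge8, which bridges phosphatidylserine to integrins, went from 21.9, 16.1 and 21.3 CPM to 57.2, 918 and 107 CPM (log2 4.19 ± 1.29, adjusted p = 0.016). It was 2.07 without replicate 2 (adjusted p = 0.183), and the call was also lost without day 3 replicate 2 (4.06) and without day 3 replicate 3 (4.24). With a covariate for runs of the column numbers it was 2.18 (adjusted p = 0.000262).

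Lysosomal genes rose in 15 of 38 cases and fell in 2 (median log2 0.39). Without day 9 replicate 2 the counts were 8 and 6, with a median of 0.06, and without day 3 replicate 2 the rises were 9. With only the 6 libraries in the fit, 8 rose and 1 fell. Atp6v0d2, a proton pump subunit, went from 127, 116 and 40.6 CPM to 370, 625 and 660 CPM (log2 2.54 ± 0.29), and Ctsd, the protease cathepsin D, from 7380, 6170 and 5660 CPM to 13300, 30800 and 15300 CPM (log2 1.63 ± 0.32, and 1.18 without replicate 2). For lipid uptake, storage and efflux 10 of 25 genes rose and 3 fell (median log2 0.4). Without day 9 replicate 2, 6 rose and 4 fell, with a median of 0.08. With only the 6 libraries in the fit, 4 rose and 1 fell. Scd1, the stearoyl-CoA desaturase, was called at 3.46 with all libraries, from 1.08, 0.236 and 0.364 CPM to 1.10, 14.6 and 4.27 CPM, and lost that call when any 1 library of day 3 or day 9 replicate 2 was left out (adjusted p = 0.251 at log2 2.14 without the last, 4.38, 3.13 and 3.23 without day 3 replicates 1, 2 and 3). With a covariate for runs of the column numbers the change of Scd1 was 2.35 (adjusted p = 0.0157).

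Repair and matrix genes changed in both directions, with 10 of 29 higher and 9 lower. Pdgfc, a platelet-derived growth factor, rose from 2.03, 0.236 and 0.874 CPM to 9.76, 44.7 and 23.6 CPM (log2 4.58 ± 0.60, 3.95 without replicate 2 and 5.5 without day 3 replicate 1). Mmp9, a gelatinase, fell by 5.20, from 23.9, 69.0 and 40.7 CPM to 0, 3.68 and 0.225 CPM, and by 8.79 without replicate 2. Vegfa was at 63.7, 61.0 and 42.2 CPM on day 3 and at 66.2, 12.5 and 50.9 CPM on day 9 (log2 -0.36, adjusted p = 0.616). Of complement and scavenger receptor genes 5 of 23 rose and 5 fell (3 without day 3 replicate 2 or day 9 replicate 1). Either share, 21.7%, was near the 18.2% and 18% of all tested genes. Cfb, complement factor B, fell from 634, 587 and 532 CPM to 18.7, 87.9 and 22.2 CPM (log2 -3.77 ± 0.50, and -4.82 without replicate 2).

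Among transcription factors of macrophages 15 of 37 fell and 10 rose. Irf4, linked to alternative activation, rose from 2.63, 0.628 and 1.24 CPM to 17.5, 5.03 and 15 CPM (log2 3.04 ± 0.46, and 3.73 without day 3 replicate 1), and Nr4a1, an immediate early nuclear receptor, fell by 3.09 from 18.9, 137 and 121 CPM to 8.22, 6.83 and 17.6 CPM.

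The most raised genes with at least 20 CPM included several without a list. Ephx1 (ENSMUSG00000038776, chromosome 1, 180976210 to 181020904, reverse strand), an epoxide hydrolase of detoxification, went from 0.473, 0.393 and 0.146 CPM to 31.1, 15.7 and 26.4 CPM (log2 6.14 ± 0.49, adjusted p = 4.14e-09). The receptor Gprc5c rose from 0.811, 0.393 and 0.218 CPM to 30.3, 6.83 and 27.9 CPM (log2 5.47 ± 0.62). Ltc4s, which makes leukotriene C4, went from 5.74, 1.89 and 1.38 CPM to 51.4, 29.9 and 70.8 CPM (log2 4.05 ± 0.40). Slco2b1, an organic anion transporter, rose by 3.59, Amz1, a metalloprotease, by 3.70 and Kazald1 by 3.85. In these 6 genes no library of day 3 reached a library of day 9, which was a condition for naming them. Cspg4, a chondroitin sulfate proteoglycan, was called at 5.91 ± 1.52 from 1.15, 0.314 and 0.0728 CPM to 3.44, 66.6 and 27.3 CPM, and was 4.84 without replicate 2. Without day 3 replicate 1 the changes were 6.13 for Gprc5c, 4.95 for Ltc4s, 4.68 for Slco2b1, 4.31 for Amz1 and 7.35 for Cspg4, and without day 9 replicate 3 that of Slco2b1 was 2.78.

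Markers of other cells also moved between the days. Of 13 tested neutrophil genes 8 fell and none rose (4 fell without day 3 replicate 2, and 5 without day 3 replicate 3, day 9 replicate 1 or day 9 replicate 3), and the summed level went from 1500 to 2670 CPM on day 3 to 297 to 369 CPM on day 9. Much of the sum on day 3 was Lcn2, listed among the most lowered genes above. The highest members on day 9 were Csf3r (314, 535 and 410 CPM on day 3, then 209, 175 and 137 CPM) and Mmp8 (53.5, 139 and 144 CPM, then 139, 78.8 and 102 CPM). For Mmp8 the libraries of the days overlapped. S100a8 went from 86.3, 188 and 202 CPM to 12.5, 55.1 and 33.4 CPM, and its partner S100a9 from 39, 130 and 137 CPM to 0.0498, 28.9 and 6.89 CPM. Cxcr2, the chemokine receptor of neutrophils, went from 6.15, 18.6 and 14.1 CPM to 0.349, 8.63 and 1.72 CPM, and Retnlg from 1.55, 6.52 and 3.5 CPM to 0, 0 and 0.15 CPM. Mpo, Elane and Ly6g did not exceed 0.314 CPM in any of the 6 libraries. Of 17 T and NK cell genes 5 fell (3 without day 3 replicate 1) and 1 rose. The sum of 655 to 1310 CPM on day 3 and 67.4 to 145 CPM on day 9 followed Ccl5, which macrophages also make (1190, 923 and 594 CPM, then 5.33, 6.38 and 2.55 CPM), and Cd3e stayed at or under 1.08 CPM. The eosinophil, basophil and mast cell list had no gene above the filter and a sum of at most 0.300 CPM. B cell genes summed to at most 4.46 CPM. Of the dendritic cell list 2 of 9 rose (22.2%, near the 18.2% of all tested genes), and 1 when any library other than day 9 replicate 2 was left out. Clec9a was at 0.946, 0.393 and 0.0728 CPM and then at 9.46, 2.93 and 5.62 CPM (log2 3.64, and 4.69 without day 3 replicate 1), and Flt3 at no more than 1.28 CPM.

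Red cell genes were called higher in 4 of 4 cases, and in none without day 9 replicate 3 or without any 1 library of day 3. The sum in day 9 replicate 3 was 195 CPM against 0.0996 and 7.73 CPM in the other libraries of that day, and the globin genes among them have near-identical copies. Of 10 epithelial genes 5 rose, 3 without day 9 replicate 1, 2 without day 9 replicate 2 and none without day 3 replicate 2 or 3. Surfactant genes were highest in day 9 replicate 2, where Sftpc reached 13.5 CPM against 1.39 and 0.973 CPM. Its call at log2 4.04 was lost without that library (adjusted p = 0.274), as it was without day 3 replicate 2 (3.51) and without day 3 replicate 3 (4.0), and the change was 5.05 without day 3 replicate 1. With a covariate for runs of the column numbers the change was 2.01 and not called (adjusted p = 0.0579). Of 4 tested endothelial and stromal genes 1 rose and 2 fell. Vwf rose from 63.8, 64.5 and 31.4 CPM to 568, 290 and 471 CPM and stood at 317 CPM in untreated resident cells, Pecam1 fell from 20.7, 24.4 and 14.5 CPM to 1.15, 1.43 and 0.599 CPM, and Kdr, a receptor for vascular endothelial growth factor, fell from 35.6, 29.4 and 11.6 CPM to 5.08, 2.03 and 2.17 CPM (log2 -3.01). The endothelial cadherin Cdh5, at or under 1.26 CPM, was not called. S100a8, S100a9, Cxcr2, Retnlg, Csf3r, Mmp8, Kdr, Cd3e, Flt3, Cdh5, Mpo, Elane and Ly6g were picked after their values were seen. The part of other cells in the changes was not tested.

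Few genes were called between day 9 and its neighbouring days. Against day 6, 3 genes were called on day 9, all lower (0.0221% of those tested), with 1089 below 0.05 before adjustment and 45 called by DESeq2. They were the complement component C3, from 2150, 1940 and 1260 CPM to 659, 912 and 767 CPM (log2 -1.19 ± 0.18, adjusted p = 0.0118), Ccl5, from 174, 64.4 and 46.5 CPM (log2 -4.31 ± 0.68), and Egln3, from 20.1, 18.8 and 17.4 CPM to 3.54, 8.33 and 4.57 CPM (log2 -1.79 ± 0.30). C3 is named as one of a few calls, outside the rule. This count rests on single libraries. It was 40 without day 9 replicate 2, 15 without day 6 replicate 3, 1 without day 9 replicate 1 and 0 without day 6 replicate 1 or day 9 replicate 3. From day 9 to day 12 a single gene was called, lower (0.00735%), with 881 below 0.05 before adjustment and 17 called by DESeq2. It was Ltb4r1, the receptor for leukotriene B4, from 10, 22.2 and 19.6 CPM to 5.66, 4.26 and 3.36 CPM (log2 -1.97 ± 0.29, adjusted p = 0.00989). That count was 11 without day 9 replicate 3, 4 without day 12 replicate 1 and 0 without day 9 replicate 2, day 12 replicate 2 or day 12 replicate 3. These comparisons share the day 9 libraries with the main one, and day 6 replicate 2 had 26.5% of its reads outside genes. In day 6 cells Nos2 was at 12.5 ± 2.38 CPM (SD, n = 3), Il1b at 124 ± 67.4 CPM and Apoe at 14400 ± 2910 CPM. Ephx1 was at 9.80 ± 0.447 CPM on day 6 and at 39.0 ± 5.93 CPM on day 12, and Mrc1 at 291 ± 71.0 CPM and 863 ± 227 CPM.

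The change of recruited cells from day 3 to day 9 was tested against that of resident cells over the same days. It was more positive in recruited cells for 1007 genes (7.40%) and more negative for 786 (5.78%), 1793 in all. Same-numbered recruited and resident libraries of a day deviated together, and with 1 replicate block per day and number 1556 and 1356 genes were called, 2912 in all.

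Genes of the division cycle moved differently in the populations. In resident cells 1837 of all 13599 tested genes fell from day 3 to day 9 and 1447 rose. Of 30 tested genes of DNA replication, 3 rose and none fell in recruited cells (median log2 0.05, with 1 higher without day 3 replicate 3 or day 9 replicate 3, and 5 lower without day 9 replicate 2, 2 without day 3 replicate 2 and 1 without day 3 replicate 3 or day 9 replicate 1), while 29 fell in resident cells, and the difference was positive in 26. Of 37 genes of mitosis and cytokinesis, 3 rose and 2 fell in recruited cells (median 0.36), while 36 fell in resident cells, and the difference was positive in 23. The mitosis figures rest on single libraries. The rises were 5 without day 9 replicate 1 and 1 without day 3 replicate 2 or 3 or day 9 replicate 2, and the falls 1 without day 3 replicate 1 or day 9 replicate 1. Without recruited day 9 replicate 2 the median turned to -0.56 and the difference was positive in 10, and without resident day 9 replicate 2 it was positive in 36. With the replicate block it was positive in 33. Mki67, the proliferation antigen Ki-67, fell in recruited cells from 198, 204 and 134 CPM to 28.1, 108 and 64.5 CPM (log2 -1.42 ± 0.40, adjusted p = 0.00868, but 0.0774 with only the 6 libraries in the fit), and in resident cells from 524 ± 19.6 CPM to 87.8 ± 58.0 CPM (SD, n = 3). The difference of its changes was not called (1.16, adjusted p = 0.184), but was with the replicate block (1.18, adjusted p = 0.0039). Mcm7, of the replicative helicase, rose from 18.8, 12.2 and 14.6 CPM to 25.4, 25.4 and 25.8 CPM (log2 0.75 ± 0.18). In the promoter windows, the E2F site TTTCGCGC was found for 5 of 25 matched replication genes (20.0%) against 0.323% of all windows and 0.768% of tested genes, 76 of 9894. For mitosis genes the cell cycle homology core TTTGAA was found for 25 of 32 (78.1%) against 17.9% of all windows and 14.4% of tested genes, and CCAAT for 25 of 32 (78.1%) against 37.4% and 42.8%.

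**Figure D5:**
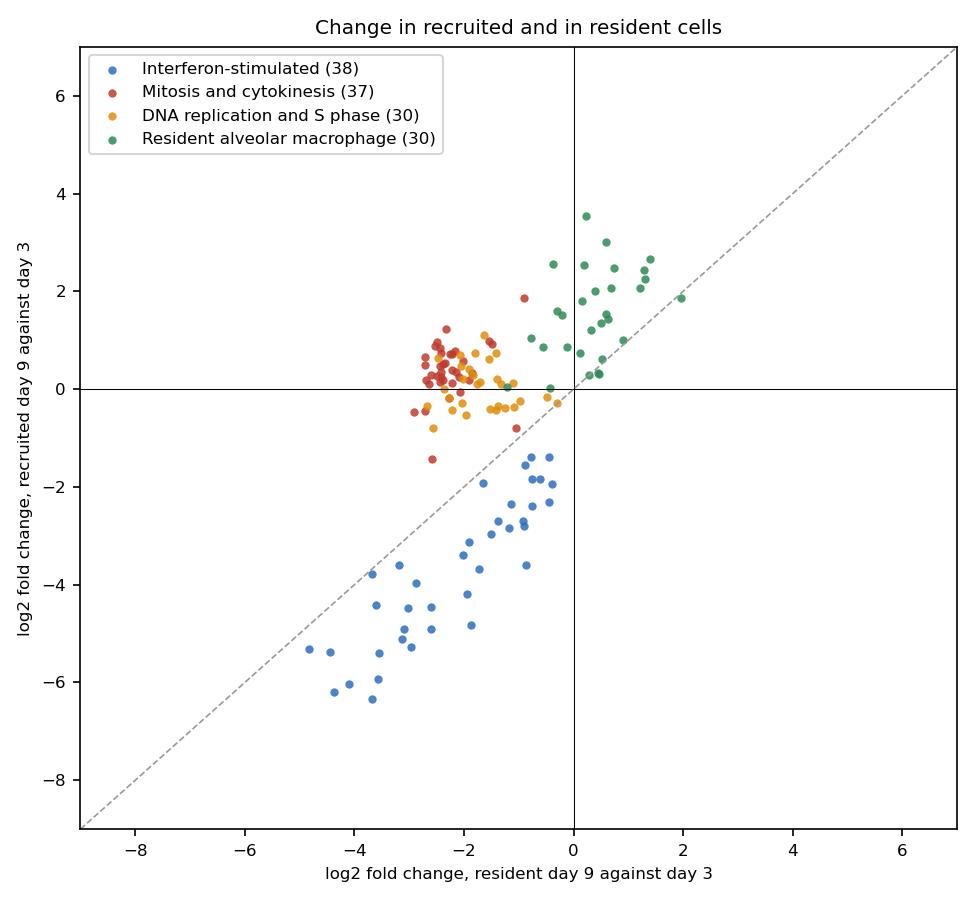
Log2 fold change from day 3 to day 9 in resident cells (horizontal axis) and in recruited cells (vertical axis) for the genes of 4 lists, 1 point per gene, with a dashed line where both are equal. On the vertical axis the genes of replication lie between -0.80 and 1.11 and those of mitosis between -1.42 and 1.87, and most of the 38 interferon-stimulated genes lie under the line.

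The fall of interferon-stimulated genes was deeper in recruited cells for 20 of 38 (28 with the replicate block, 16 without resident day 9 replicate 2) and shallower for none. Among single genes with at least 20 CPM in a group, the differences that were most positive were those of Thbs1, Ephx1 and Csf1. Thbs1, the matrix protein thrombospondin 1, was at 167, 501 and 452 CPM on day 3 and at 188, 844 and 361 CPM on day 9 in recruited cells, and went from 38.4 ± 10.6 CPM to 1.30 ± 1.20 CPM (SD, n = 3) in resident cells (difference in log2 change 5.21, adjusted p = 0.00649). Csf1 was at 63.0, 93.9 and 45.8 CPM and then at 60.9, 30 and 45.3 CPM in recruited cells, and went from 25.5 ± 10.2 CPM to 0.930 ± 0.375 CPM in resident cells (difference 4.21, adjusted p = 4.74e-05). The most negative were Spon1 (-4.85), Ifit1bl1 (-4.32) and Treml4 (-3.22). Their order rests on single libraries, since without recruited day 9 replicate 2 the difference was -6.28 for Ifit1bl1 and -4.61 for Spon1. That of Thbs1 was 4.48 without recruited day 9 replicate 2 and 6.25 without resident day 9 replicate 2, and that of Spon1 was -5.55 without recruited day 9 replicate 1 and -5.59 without resident day 3 replicate 1. Spon1, an adhesion protein, was at 32.8, 54.9 and 38.4 CPM on day 3 and at 1.20, 0.450 and 0.449 CPM on day 9 in recruited cells, and at 1.49 ± 1.04 CPM and 0.764 ± 0.404 CPM in resident cells. The monocyte gene Ly6c2 was at 5.775, 4.719 and 6.123 log2 CPM in resident libraries of day 3. On day 9 it was at -1.149, 1.042 and -1.442 log2 CPM in resident libraries. Whether recruited cells in the resident sort had a part in the differences between populations was not tested.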

How the data were processed

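Gene counts of 27 RNA-seq libraries were used as deposited by the authors (raw read counts per gene, with no normalization). Per the submitters' processing notes the build was mm10 and the tools were HTSeq 0.6.0, STAR 2.4.0a, R 3.1.0 and DESeq2 1.4.5, without roles. For the strand option and the gene annotation of the counting, nothing is given in the sources used here. Per the labels, libraries were made from polyadenylated RNA. Rows for reads outside genes (6.93% to 13% in the 6 libraries) stayed out of totals and tests.

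Genes passing filterByExpr (minimum count 10, minimum total 15) were fitted with edgeR's robust quasi-likelihood model (version 4.0.16, R 4.3.3) after TMM scaling, with 1 mean per group over all 9 groups (18 residual degrees of freedom), Benjamini-Hochberg adjustment over all 13599 genes at 0.05. SE is the log2 change divided by the root of F. With 3 libraries against 3, an exact permutation test of a single gene cannot go below p = 0.1. Promoters are RefSeq windows of 300 bases and positions GENCODE gene models, both on GRCm38.

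Named genes were up to 3 per list with non-overlapping libraries and at least 5 CPM, up to 2 per list of other cells, the 10 most changed each way with at least 20 CPM, 3 each way for the difference from resident cells, and a short fixed set. The members, lists and rules were chosen with earlier results of these data known. Same-numbered recruited and resident libraries deviated together (r = 0.18 to 0.29 on day 3, 0.23 to 0.52 on day 9) over genes, and were treated as paired in a second fit. The labels do not say what the number stands for. Alternatives were other scalings, no filter, fewer libraries in the fit, a replicate block, a covariate for runs of the column numbers (grouped by eye), DESeq2 1.42.0 and leaving out each library.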

Additional observations from a re-analysis of the deposited data

Results flagged for a closer look

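The change from day 3 to day 9 differed between recruited and resident cells, by the test of the difference itself, in 1793 genes. The difference in log2 change was 5.21 for Thbs1, 4.86 for Ephx1 and 4.21 for Csf1, and -4.85 for Spon1, -4.32 for Ifit1bl1 and -3.22 for Treml4. Treml4 went from 23.8 ± 8.10 CPM to 3.00 ± 1.76 CPM in recruited cells and from 31.2 ± 3.29 CPM to 36.1 ± 9.57 CPM in resident cells (SD, n = 3). Among the genes followed whatever their result, Itgam differed by 3.51: it went from 3020 ± 765 CPM to 1810 ± 516 CPM in recruited cells and from 398 ± 101 CPM to 21 ± 19.7 CPM in resident cells. These 7 genes passed under every alternative that was run, with Ifit1bl1 at -6.28 without recruited day 9 replicate 2, and Itgam at 4.65 without resident day 9 replicate 2. Whether recruited cells in the resident sort had a part in their differences was not tested. Pparg differed by 1.66, and its call was lost without recruited day 3 replicate 3 (1.41), without recruited day 9 replicate 3 (1.34) and with only the libraries compared (1.69). Itgax differed by 0.94, with 7 alternatives that lost the call, at 0.65 to 0.97. Il1b differed by -2.57, and the call was lost with the replicate block (-2.56, adjusted p = 0.0853), with no filter (-2.55), and without recruited day 3 replicate 2 (-2.32), recruited day 9 replicate 2 (-2.25), resident day 3 replicate 1 (-2.52) or resident day 9 replicate 3 (-2.43).

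The share of reads outside genes, which enters no comparison, was above the 9.16% to 11.2% of the untreated resident libraries in recruited day 3 replicate 1 (12.0%), day 9 replicate 1 (13%) and day 9 replicate 3 (12.1%), and, by less than the rounding shows, in day 3 replicate 2 (11.2%). The untreated libraries are of the resident population, so that a comparison with them alone cannot tell population and treatment apart. Of the resident libraries after LPS, day 6 replicate 1 (11.8%) and day 9 replicate 1 (12.7%) were also above that range, and the others were not.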

How the results depend on the processing

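Of 4933 genes called between day 3 and day 9, between 2745 (only the 6 libraries) and 4876 (DESeq2) were called again in the same direction, and none in the opposite one, under the 14 alternatives run. With only the libraries compared, the rises were 1341 and the falls 1431. Leaving out single libraries gave 1932 to 2591 rises and 1950 to 2436 falls. Genes called between day 9 and day 6 numbered 5 with library size alone, 5 with no filter, 203 with the number run as a covariate, 0 with only the libraries compared, 0 with only the 12 recruited libraries, 45 with DESeq2 and 0 to 40 without single libraries. Between day 12 and day 9 they numbered 4 with no filter, 18 with the number run, 0 with only the libraries compared, 0 with only the 12 recruited libraries, 17 with DESeq2 and 0 to 11 without single libraries. The difference between populations was called in 2912 genes with the replicate block, 2802 with the number run, 947 with only the libraries compared and 1253 to 1960 without single libraries. Fewer libraries in the fit leave fewer residual degrees of freedom, and the cause of the other shifts was not tested.

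Recruited libraries of day 3 and day 9 with the same number did not deviate together (r = -0.01, -0.11 and -0.09), and the replicate block gave 2488 rises and 2478 falls, 3 genes against day 6 and 1 for day 12. Replicate 2 has the column number 25 on day 3 and 17 on day 9, and replicate 3 has 49 and 27. The block thus joins libraries of different runs of the column numbers and cannot take out an effect of those runs. Of 2136 values of single genes under the alternatives, 94 lost their call, 21 gained one and none changed sign with a call in either fit. Some estimates without a call did change sign. Without recruited day 9 replicate 2, C1qa went from 1.13 to -0.59 and Thbs1 from 0.31 to -0.42 (log2 change, day 9 against day 3). Of 1092 counts of list members, 179 moved by over 1.5 times. With only the 6 libraries in the fit, the falls were 8 among macrophage transcription factors, 5 among repair and matrix genes and 4 in iron handling. Counts at a few CPM, as for the markers of other cells, limit what can be seen at this depth.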
